A study of Arabidopsis thaliana with 6 samples.

Results

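Beta-tubulin transcripts were followed in root meristems dissected from Arabidopsis thaliana seedlings 7 days after sowing, on 6 Affymetrix arrays. The beta-tubulin genes were taken as the probe sets whose annotated symbol is TUB and a number, which gave 5 genes (TUB1, TUB5, TUB6, TUB7 and TUB9) of the 13356 that have a probe set to themselves, in a table of 22810 probe sets. The RefSeq gene table lists 9 such genes, and the other 4, TUB2, TUB3, TUB4 and TUB8, had no probe set named for them alone and were not analysed here. TUB1, TUB5 and TUB6 were chosen by their log2 differences between the genotypes in this same comparison, so these differences, and the calls that the fit across all probe sets gave them, are a description and support nothing further. TUB7 and TUB9 entered by their symbol alone.

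The 35S:miR396 plants (3 arrays) overexpress the microRNA miR396 from 35S, a viral promoter that is active in most plant tissues. The other plants were wild type (WT, 3 arrays). Both groups were grown untreated on vertical agar plates in long days at 21 °C. Per the labels the arrays of a group are biological replicates, with no word on separate plates or sowings, or on whether 35S:miR396 is 1 line or several. Probe sets for the GRF transcription factors, the main known targets of miR396, were not named in the annotation, so the genotype rests on the labels.

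Alpha- and beta-tubulin pair into the dimer from which microtubules assemble. In a dividing root cell microtubules form the preprophase band, the spindle and the phragmoplast, and in an elongating cell the cortical array that guides cellulose deposition. Plant genomes carry several beta-tubulin genes whose proteins are highly alike and whose transcripts differ in where and when they accumulate. In Arabidopsis, TUB1 is known as a gene expressed mainly in roots, and TUB9 as one expressed in pollen. GRF factors, which miR396 restrains, help to set the size of the root meristem.

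Levels are log2 GCRMA values, in which a step of 1 is a doubling of signal. GCRMA corrects for background and brings arrays to a common scale, so a change of total RNA per cell would not be seen, and fewer cells of a type cannot be told apart from less RNA per cell. Probe sets below a log2 value of 4 in more than 3 of the 6 arrays were not tested. The filter kept 11364 probe sets, among them all 5 beta-tubulins, whose values lay between 8.53 and 10.24 and thus far from the lowest value in the table, 2.25. The level of one probe set was not set against that of another, since probes differ in how well they bind. How far the probes of one beta-tubulin also bind transcripts of its relatives was not tested. Precision is limited by the number of arrays.

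Of the 5 beta-tubulin genes, 3 were lower in 35S:miR396 meristems and 2 lay at about the WT value. TUB1 stood at 51.1% of its WT signal, TUB5 at 58.8% and TUB6 at 77.0%. TUB7 stood at 103% and TUB9 at 96.1%.

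TUB1 (AT1G75780) had log2 values of 8.53, 9.63 and 9.25 in replicates 1, 2 and 3 of 35S:miR396, against 10.07, 10.01 and 10.24 in WT, given in the same order here and below. The groups did not overlap, and the 35S:miR396 arrays were spread widely, with replicate 1 far below the rest and replicate 2 only 0.37 below the lowest WT array. The mean was 9.14 ± 0.56 in 35S:miR396 and 10.10 ± 0.12 in WT (SD, n = 3 each). The log2 difference, 35S:miR396 minus WT, was -0.97 ± 0.25 (SE), a signal 1.96-fold lower.

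TUB5 (AT1G20010) had log2 values of 8.93, 9.41 and 9.17 in 35S:miR396, against 9.93, 9.83 and 10.04 in WT. All 3 arrays of 35S:miR396 lay below all 3 of WT, with a gap of 0.42 between the nearest arrays. The mean was 9.17 ± 0.24 in 35S:miR396 and 9.93 ± 0.10 in WT (SD, n = 3 each), and the log2 difference was -0.77 ± 0.12 (SE), or 1.70-fold lower. Replicate 1 was again the lowest 35S:miR396 array and replicate 2 the highest.

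TUB6 (AT5G12250) differed less but was the tightest of the set. Its log2 values were 9.65, 9.70 and 9.64 in 35S:miR396, against 10.08, 10.07 and 9.97 in WT. The groups were separated by 0.26, several times the SD within 35S:miR396, with means of 9.66 ± 0.04 in 35S:miR396 and 10.04 ± 0.06 in WT (SD, n = 3 each). The log2 difference was -0.38 ± 0.06 (SE), or 1.30-fold lower, and all 3 arrays of 35S:miR396 were lowered by a like amount.

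TUB7 (AT2G29550) had log2 values of 9.63, 9.90 and 9.76 in 35S:miR396, against 9.59, 9.69 and 9.89 in WT. The 2 groups were interleaved, with means of 9.77 ± 0.13 and 9.72 ± 0.15 (SD, n = 3 each) in 35S:miR396 and WT. The log2 difference was 0.04 ± 0.10 (SE). Its 95% interval, -0.19 to 0.28, leaves room for a signal between 0.875 and 1.21 times that of WT.

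TUB9 (AT4G20890) had log2 values of 9.52, 9.73 and 9.68 in 35S:miR396, against 9.65, 9.69 and 9.76 in WT. These groups overlapped too, with means of 9.64 ± 0.11 in 35S:miR396 and 9.70 ± 0.06 in WT (SD, n = 3 each). The log2 difference was -0.06 ± 0.07 (SE), and the 95% interval of -0.23 to 0.11 spans 0.853 to 1.08 times the WT signal. A halving of TUB7 or TUB9, the size seen at TUB1, lies outside these intervals.

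**Figure D1:**
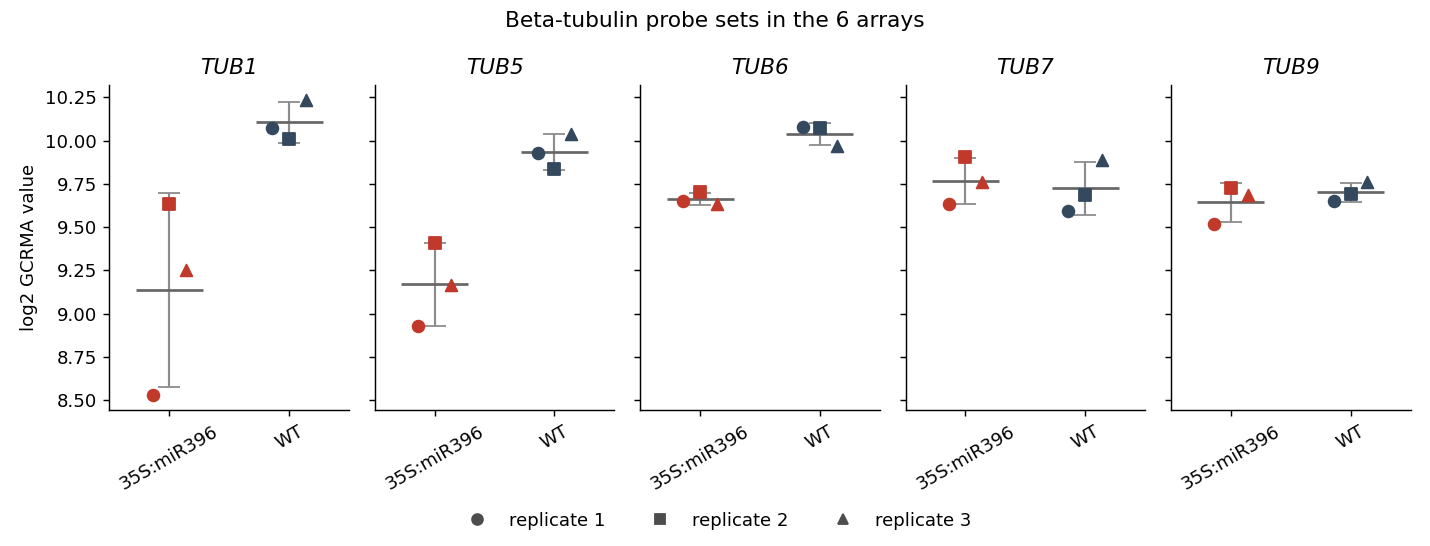
Log2 GCRMA value (y axis) of the 5 beta-tubulin probe sets in each array, with 35S:miR396 left and WT right in each panel; points are arrays, horizontal bars means and error bars SD (n = 3). The groups are apart for TUB1, TUB5 and TUB6 and overlap for TUB7 and TUB9, and replicate 1 of 35S:miR396 is the lowest array for TUB1 at 8.53.

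Across the whole table, limma called 2838 of the 11364 tested probe sets at an adjusted p under 0.05, or 25.0%, of which 1400 were lower in 35S:miR396 (12.3%) and 1438 higher (12.7%). Of the 5 beta-tubulins, 3 were called, all of them lower, and 2 were not called. Since this comparison is how the genes came to notice, nothing is read from that share. Groups that did not overlap were found at 45.7% of all tested probe sets, at 24.3% with 35S:miR396 below WT, and at 3 of the 5 beta-tubulins, all with 35S:miR396 below WT. The median log2 difference was -0.38 over the 5, the value of TUB6 itself, and -0.01 over all tested probe sets. Of tested probe sets, 1.42% had a lower difference than TUB1, 2.69% a lower one than TUB5 and 12.3% a lower one than TUB6. TUB7 and TUB9 lay near the middle, with 57.7% and 44.4% below them. The median of the 5, and the ranks and lack of overlap of TUB1, TUB5 and TUB6, follow from how these genes were chosen, and nothing is read from them.

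**Figure D2:**
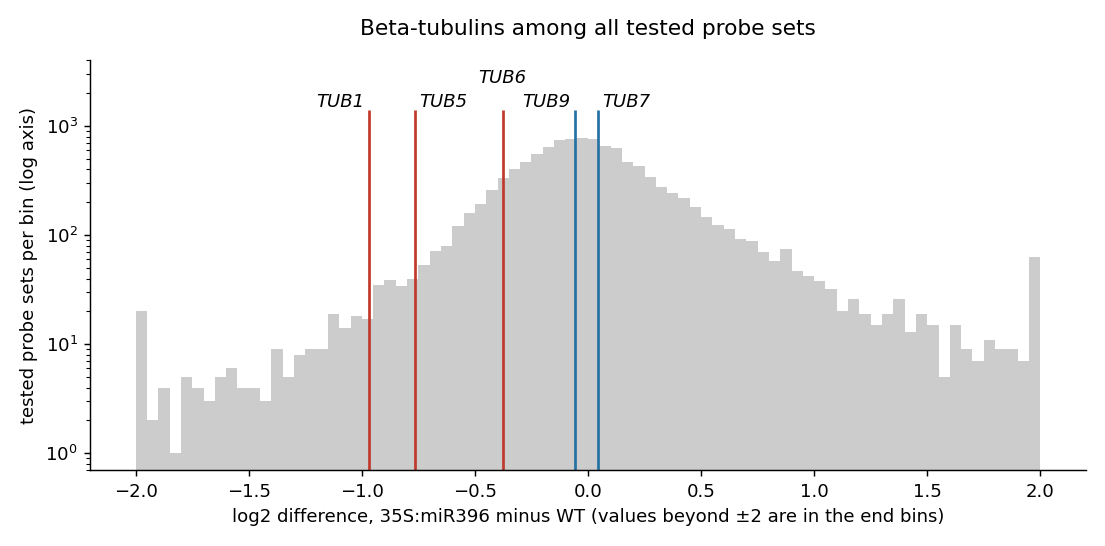
Histogram of the log2 difference, 35S:miR396 minus WT (x axis), over the 11364 tested probe sets (y axis, log scale), with a line at each beta-tubulin, red where called by limma and blue where not. TUB1 (-0.97) and TUB5 (-0.77) lie in the lower tail, TUB6 (-0.38) on its shoulder, and TUB7 (0.04) and TUB9 (-0.06) at the centre.

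Ratios between family members within an array do not depend on any constant shift of that array's log2 values. Relative to its WT mean, the log2 ratio of TUB1 to TUB9 stood at -1.39, -0.50 and -0.84 in the 3 arrays of 35S:miR396. For TUB5 to TUB9 these values were -0.82, -0.55 and -0.75. For TUB6 to TUB9 they were -0.21, -0.36 and -0.39. In all 3 ratios the 35S:miR396 arrays lay below every WT array. These ratios restate the differences by which TUB1, TUB5 and TUB6 were chosen and add no evidence to them.

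The ratio of TUB5 to TUB7 was the steadiest of those with a large shift, at -0.92, -0.70 and -0.81 in the 3 arrays of 35S:miR396 relative to its WT mean. Between TUB1 and TUB5 the ratio was -0.57, 0.05 and -0.09 relative to WT, and the groups overlapped, with replicate 1 of 35S:miR396 farthest from the WT mean. TUB7 and TUB9 kept a ratio close to that in WT, at 0.09, 0.15 and 0.05, also with overlapping groups. Of the 10 pairs of beta-tubulins, these were the 2 with overlapping ratios. Every other pair holds TUB1, TUB5 or TUB6, which were chosen by these differences, so nothing is read from that count.

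The arrays of 35S:miR396 differed in how far they stood from WT. Relative to the WT mean, TUB1 was at -1.58, -0.47 and -0.85 in replicates 1, 2 and 3, and TUB5 at -1.01, -0.52 and -0.77. TUB6 did not follow this order, at -0.39, -0.34 and -0.40. The same order of arrays, replicate 1 farthest and replicate 2 nearest, held on the first principal component of all tested probe sets, which carried 70.4% of the variance. Its scores were 37.9 for replicate 1, 11.3 for replicate 2 and 27.2 for replicate 3 of 35S:miR396, and lay between -28.9 and -22.9 in WT. The part of this array-wide order in the tubulin values was not tested.

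Leaving out single arrays moved the size of the TUB1 difference most. It was -0.66 without replicate 1 of 35S:miR396 and -1.22 without replicate 2, and the call was lost without replicates 1, 2 and 3 of WT, each left out alone (-0.98, -1.02 and -0.90), and without replicate 3 of 35S:miR396 (-1.03). TUB5 kept its call in all 6 of these fits, with values from -0.89, when replicate 2 of 35S:miR396 was left out, to -0.65, when replicate 1 was. TUB6 kept its call in all 6 as well, between -0.41 and -0.36. It alone of the 5 was also called when no dim probe set was filtered out. All these fits reuse the values by which TUB1, TUB5 and TUB6 were chosen, so calls that were kept add no evidence. TUB7 ranged from -0.03 to 0.13 and TUB9 from -0.10 to 0.01, so the sign of both turned with the array left out, and neither was called in any fit.

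**Figure D3:**
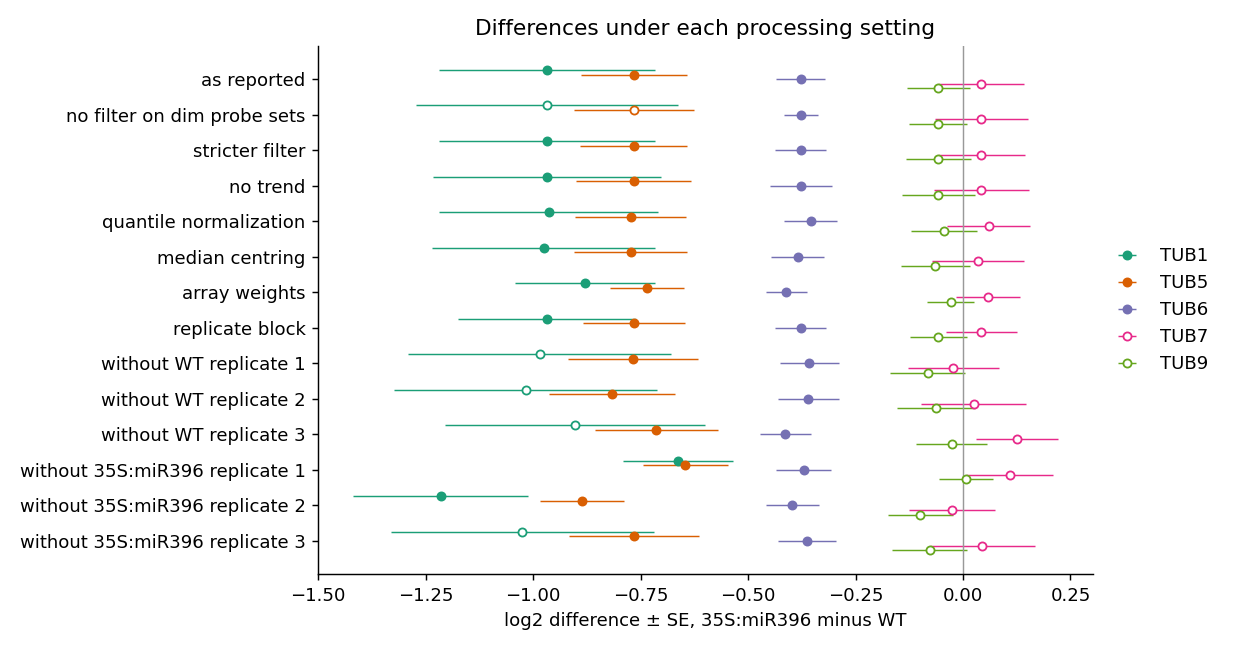
Log2 difference ± SE, 35S:miR396 minus WT (x axis), of each beta-tubulin under the reported setting and 13 alternatives (rows), with filled points called by limma and open points not called. TUB1, TUB5 and TUB6 stay below 0 in every row, TUB1 has the widest range (-1.22 to -0.66), and TUB7 and TUB9 lie around 0. The groups of TUB1, TUB5 and TUB6 do not overlap, which fixes their sign wherever an array is left out or weighted.

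The partner of beta-tubulin in the dimer is alpha-tubulin, of which Arabidopsis has 6 genes. TUA6 was the tested alpha-tubulin with a probe set of its own. It had log2 values of 11.73, 11.89 and 11.84 in 35S:miR396, against 11.84, 11.89 and 12.09 in WT, and its groups overlapped. The log2 difference was -0.12 ± 0.07 (SE), with an adjusted p of 0.269 by limma. TUA1, known as a pollen alpha-tubulin, was near the floor of the table in both genotypes, at 2.66 ± 0.01 in 35S:miR396 and 2.69 ± 0.07 in WT (SD, n = 3 each), and was not tested.

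One further probe set is assigned to TUA3 and TUA5 together, neighbouring genes, so its value belongs to neither alone. Its log2 values were 11.01, 11.34 and 11.21 in 35S:miR396, against 11.41, 11.37 and 11.45 in WT. The groups were apart by only 0.02, and the log2 difference of -0.22 ± 0.08 (SE) did not pass limma's test (adjusted p = 0.0897). The order of the 35S:miR396 arrays was that of TUB1 and TUB5. Neither TUA6 nor this shared probe set was called, against 25.0% of all tested probe sets, so nothing is read from these missing calls. Whether the alpha-tubulins differ from the beta-tubulins in response was not tested.

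Genes that act on tubulin and microtubules could be followed at few points. In a list of 21 genes of tubulin folding, 10 entries were set aside because the tables do not name their loci in that role, and 2 of the rest were tested. TFCC and TFCE, cofactors that help to assemble the tubulin dimer, had log2 differences of -0.08 ± 0.11 and -0.05 ± 0.09 (SE), and neither was called. TON1B, which is needed for the preprophase band, was the tested gene of the list of gamma-tubulin and nucleation factors and stood at -0.16 ± 0.11 (SE, adjusted p = 0.299 by limma). Of 23 microtubule-associated proteins, 2 were tested and neither was called. MAP65-6, of a family of microtubule bundlers, stood at 0.10 ± 0.12 (SE), and SPR1, a small protein of cortical microtubules that keeps root growth straight, at -0.07 ± 0.09 (SE). Of all tested probe sets 25.0% were called, so nothing is read from missing calls in lists this short.

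Members of 2 further families were drawn from the annotation by symbol, after the values had been seen. SPR1 and its relatives SP1L3 and SP1L4 were tested, and none of the 3 was called (median log2 difference -0.07). With 25.0% of all tested probe sets called, nothing is read from this. The IQD family, calmodulin-binding proteins many of which lie on microtubules, had 10 tested members, of which 3 rose, 1 fell and 6 did not pass, against the 25.0% of all tested probe sets that were called. Of those that rose, IQD15 passed the filter through its 35S:miR396 arrays alone, so nothing is read from its call. The median log2 difference was -0.01 both over the 10 and over all tested probe sets. The 10 include IQD15, so nothing is read from this match.

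IQD16 rose by 0.67 ± 0.11 (log2, SE) in 35S:miR396 (adjusted p = 0.00789 by limma, and at most 0.044 over the alternatives). IQD15 stood at 4.25 ± 0.12 in 35S:miR396 and at 2.89 ± 0.31 in WT (SD, n = 3 each), the WT level being close to the lowest value in the table. All its WT arrays lay below the filter of 4. It was tested only because its 35S:miR396 arrays passed, so its difference of 1.36 ± 0.18 (log2, SE) is a description. IQD26 stood at 0.42 ± 0.11 (SE) and IQD32 at -0.35 ± 0.09 (SE). Both lost the call in 5 of the 6 fits with an array left out, and kept it when that array was replicate 2 of 35S:miR396. IQD26 was then at 0.42, 0.44 and 0.40 without replicates 1, 2 and 3 of WT, at 0.35 without replicate 1 of 35S:miR396 and at 0.39 without replicate 3. IQD32 was at -0.28, -0.37 and -0.38 without the WT arrays in the same order, and at -0.35 and -0.32 without replicates 1 and 3 of 35S:miR396.

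Actin forms the other main filament system of the plant cell. Of 8 actin genes, 2 had a named probe set. ACT11 had log2 values of 5.92, 6.57 and 6.30 in 35S:miR396, against 6.88, 6.90 and 7.45 in WT. Its groups did not overlap, and it fell by 0.81 ± 0.21 (log2, SE; adjusted p = 0.033 by limma), a size between those of TUB1 and TUB5. As at these genes, replicate 1 was the lowest array of 35S:miR396 and replicate 2 the highest. The call of ACT11 was lost without replicates 1, 2 and 3 of WT, each left out alone (-0.91, -0.90 and -0.63). It was also lost, at -0.64 and -0.83, when replicates 1 and 3 of 35S:miR396 were left out in turn, and its adjusted p reached 0.151 over the alternatives. ACT12, a pollen actin, was at the floor of the table, at 2.26 in all 6 arrays. How the widely expressed vegetative actins behaved was not analysed here.

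**Figure D4:**
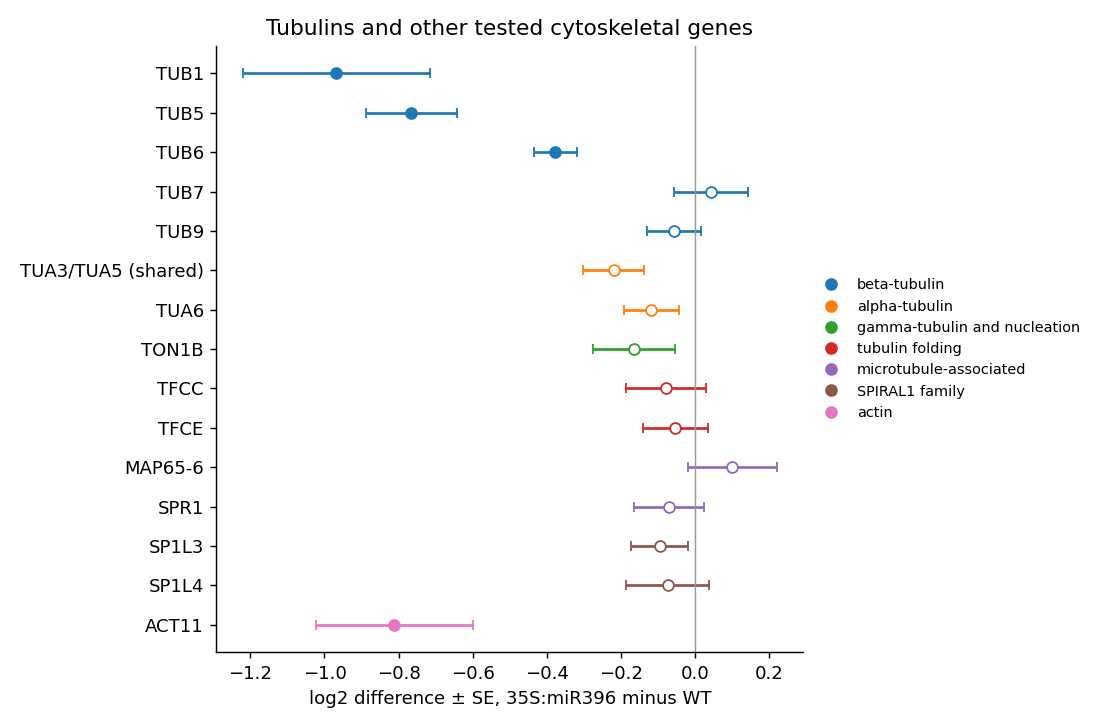
Log2 difference ± SE, 35S:miR396 minus WT (x axis), of the tested tubulin, tubulin-folding, microtubule and actin probe sets (rows, coloured by list), with filled points called by limma. TUB1, TUB5, TUB6 and ACT11 lie at -0.38 or below, and the others, from the probe set shared by TUA3 and TUA5 (-0.22) to MAP65-6 (0.10), were not called.

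Markers give a limited view of which cells the samples held. BBM, a regulator of the root stem cell niche, was the meristem marker with a probe set, at 7.08 ± 0.25 in 35S:miR396 and 5.58 ± 0.08 in WT (SD, n = 3 each). The root hair genes EXPA7 and EXPA18 were at the floor, at 2.26 ± 0.00 and 2.29 ± 0.07 in 35S:miR396 and 2.25 in all WT arrays. They cover root hair cells alone and give no view of other cells that have left the meristem. No listed marker of xylem, phloem, root cap or shoot had a probe set named for it, so a part of these cell types in the tubulin values was not tested.

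The genes whose pattern over the 6 arrays was most like that of the beta-tubulins were sought among 869 tested probe sets. Each stands for 1 gene whose symbol is not a locus code, so most of the 6229 tested probe sets with 1 gene were not searched. Likeness was Pearson's r with the mean of the 5 beta-tubulins, each centred on its own mean. The arrays fall into the 2 genotypes, so a high r is common to genes that share a difference between them: 9.44% of these probe sets had an r over 0.9. The mean itself was dominated by TUB1 (r = 0.996) and TUB5 (0.982), with TUB6 at 0.840, TUB9 at 0.776 and TUB7 at 0.275. The 5 nearest genes were TBL16 (r = 0.996), of a family of wall polysaccharide acetylation, bZIP52 (0.996), a transcription factor, UBP21 (0.993), a deubiquitinating enzyme, CEF (0.989), a protein of the Sec24 type found in vesicle coats, and Hop2 (0.988), a co-chaperone. Their log2 differences ran from -0.71 at UBP21 to -0.22 at Hop2. TBL16, for example, had log2 values of 5.77, 6.24 and 6.02 in 35S:miR396, against 6.45, 6.45 and 6.51 in WT, with the same order of the 35S:miR396 arrays as TUB1 and TUB5.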

How the data were processed

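The deposited log2 values are GCRMA summaries of probe sets, as the authors made them per the submitters' processing notes; its version is not given in the sources used here. RNA was labelled with biotin from the 3' end of transcripts, per the labels' protocols. The log2 scale was read from the values, 2.25 to 14.28. Groups and replicate numbers came from the sample titles. Control probe sets (64) were left out. Probe sets were named from the platform annotation, which gives 1 gene for 13513, several for 503 and does not list 8794. RefSeq (TAIR10.1) gave loci for 13436. A gene with several probe sets took the one with the highest mean.

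R 4.3.3 and limma 3.58.1 (lmFit, eBayes with a mean trend, 1 coefficient, two-sided) were fitted to all 11364 tested probe sets, with Benjamini-Hochberg adjustment over them and a threshold of 0.05. Errors are limma's SE or SD over 3 arrays, and p-values cover only the spread between these samples, which may be technical in part. The fit was run on simulated data with far fewer changed probe sets than were called here, and with noise independent between probe sets. That run is not used as support. Named genes were all tubulins with a probe set; of other lists up to 4 called members by size of difference, or that with the smallest p; and the 5 of most similar pattern. Where so few were tested, others are given beside them. The members and lists were chosen with earlier results of these data known. Alternatives were no filter or a stricter one at 6, no trend, further quantile normalization, median centring, array weights, a replicate block and each array left out. No sequences or coordinates are given.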

Additional observations from a re-analysis of the deposited data

How the results depend on the processing

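The filters, the trend and the replicate block leave the log2 differences themselves unchanged by construction. Leaving out 1 of 3 arrays cannot move a difference by the SD between replicates, pooled over both groups. Under quantile normalization, median centring and array weights, the differences of the 5 beta-tubulins moved by less than this SD. Those of TUB1, TUB5 and TUB6 stayed negative under all alternatives. Their groups do not overlap, which fixes that sign when an array is left out or weighted. TUB1 kept its call in 8 of the 13 alternatives, TUB5 in 12 and TUB6 in 13. Without single arrays TUB1 ranged from -1.22 to -0.66, TUB5 from -0.89 to -0.65 and TUB6 from -0.41 to -0.36. Without the filter on dim probe sets 1 beta-tubulin, TUB6, was called in place of 3, together with 2 of the IQD genes, no actin and 941 probe sets in all. Array weights gave 4749 calls in all. Leaving out single arrays gave 1052 to 3813 calls in all, 2 to 3 beta-tubulins, 2 to 5 IQD genes and 0 to 1 actin. With no filter 22746 probe sets were tested, and with an array left out 1 sample fewer. Whether the replicate numbers pair the arrays was not settled. The correlations of same-numbered deviations were 0.40, -0.09 and 0.14. Replicates 1 and 3 of 35S:miR396 correlated best with their own number, and replicate 2 with WT replicate 3 (0.35). With 3 arrays in each group, each centred on its group mean, these correlations depend on one another. With the replicate block 2844 probe sets were called, TUB1, TUB5 and TUB6 among them. The 5 had signals well over the floor of the table, and the number of arrays limits their precision.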
